A study of Mus musculus with 2 samples.

Results

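The barcodes described here were the candidate monocytes of a single-cell RNA-sequencing study of mouse liver. They were chosen by detected genes. A barcode needed at least 500 UMIs (unique molecular identifiers, each counting 1 captured RNA molecule) and at most 50% mitochondrial UMIs. It also needed at least 3 of the 9 genes Ly6c2, Ccr2, Chil3, Plac8, Lyz2, Fn1, S100a4, Ace and Treml4, with at least 1 of Ly6c2, Chil3, Ace and Treml4 among them. Barcodes with 2 or more of the 4 macrophage genes C1qa, C1qb, C1qc and Clec4f, or with more than 1 of 12 genes of other lineages, were left out. The rule found 68 barcodes among the 47880 that passed the limits on UMIs and mitochondrial share.

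The study compared wild-type littermates (WT) with mice in which miR-33 was deleted in hepatocytes (HKO). HKO mice carried loxP-flanked miR-33 and a Cre recombinase under the albumin promoter, which is active in hepatocytes and not in blood cells. Both groups were male and received CD-HFD for 6 months from 8 weeks of age. Each genotype was a single library from a pool of 3 livers, in which hepatocytes and sorted non-parenchymal cells had been mixed, so the animals within a pool could not be told apart and no difference between WT and HKO had a replicate check. Of the 68 barcodes, 31 came from the WT and 37 from the HKO library.

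Monocytes are made in the bone marrow and circulate in blood. Classical monocytes carry high Ly6c2 and the chemokine receptor Ccr2, enter injured tissue and can become macrophages there, whereas non-classical monocytes carry low Ly6c2 and patrol the vessel wall. In steatohepatitis, recruited monocytes replenish macrophages of the liver and can take up lipid-handling or inflammatory programs. miR-33 is encoded within an intron of Srebf2 and represses transcripts of cholesterol efflux and fatty acid oxidation. Its mature sequence is shown because it is what the HKO mice lack in hepatocytes, with the seed (bases 2 to 8) in capitals, as annotated by RefSeq on the plus strand at chr15:82198127-82198147 of GRCm38.p6.
miR-33-5p: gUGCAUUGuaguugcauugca

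The libraries differed in depth before any gene was compared. WT yielded 130451427 UMIs over 30078 barcodes, and HKO 52563185 UMIs over 20000. The most common depth was 2570 UMIs in WT and 813 in HKO, and barcodes around it (free RNA depth) had a median of 18.7% and 15.9% of their UMIs in a list of 28 hepatocyte genes. At that depth Fn1, a secreted protein that hepatocytes also make, was found in 87.3% of barcodes in WT and 50.9% in HKO, so Fn1 added little to the rule. Each of the other rule genes was detected in at most 1.9% of them.

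The monocyte label was first checked against 16 core myeloid genes that the rule did not use (Csf1r, Cybb, Lst1, Ms4a6c, Mpeg1, Cd68, Clec4a1, Clec4a3, Csf2ra, Cd14, Itgam, Ctss, Fcer1g, Tyrobp, Aif1 and Sirpa). In WT, 13 of 31 barcodes held 0 or 1 of them, 10 held 2 to 7, 3 held 8 to 11 and 5 held 12 to 16. In HKO, the same classes held 8, 9, 6 and 14 of 37 barcodes. The data therefore went against the label for most WT barcodes. Exactly 3 rule genes, the minimum, were detected in 22 WT and 14 HKO barcodes, and in 21 and 12 of these the only gene among Ly6c2, Chil3, Ace and Treml4 rested on 1 UMI.

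The barcodes with under 8 core genes, 23 in WT and 17 in HKO, held mostly RNA of other cells or few UMIs of any myeloid gene. Hepatocyte genes made up at least 10% of UMIs in 19 of the 23 barcodes in WT and 5 of the 17 in HKO. At least 4 of 13 endothelial markers were detected in 3 WT and 7 HKO barcodes of this kind. Other leukocyte markers also occurred. At least 3 T cell genes were detected in 2 WT and 1 HKO barcodes, and at least 3 NK and ILC1 genes in 2 WT barcodes. At least 3 B cell genes were found in 2 HKO barcodes. At least 6 plasmacytoid dendritic cell genes were found in 1 WT and 2 HKO barcodes, and at least 6 neutrophil genes in 1 HKO barcode. Csf1r, the receptor for the main monocyte growth factor, summed to 6 UMIs over the 23 WT and 3 UMIs over the 17 HKO barcodes, and Lyz2, the lysozyme of myeloid cells, to 7 UMIs in each library. Csf1r is among the core genes and Lyz2 among the rule genes, so the choice of barcodes bears on these sums. Just outside the rule, 185 WT and 49 HKO barcodes met its other limits with exactly 2 rule genes, and none of them held 8 or more core genes. However, 10 WT and 20 HKO barcodes outside the rule held 8 or more core genes with under 2 of the macrophage genes. Of these, 4 in each library had 2 or more genes of other lineages. The rule therefore did not take in all barcodes of this kind.

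**Figure D1:**
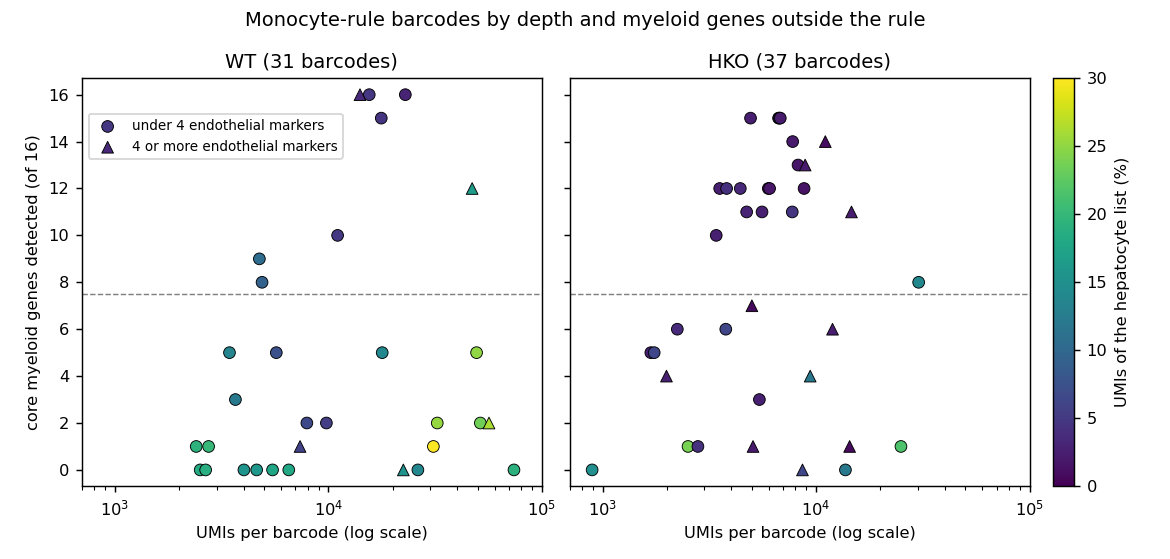
Each point is a monocyte-rule barcode, placed by its UMIs (log scale) and by how many of 16 core myeloid genes it held, with the hepatocyte share of its UMIs as color and triangles for barcodes with 4 or more endothelial markers. The dashed line separates the 8 WT and 20 HKO barcodes with 8 or more core genes from the 23 and 17 below it, which in WT were mostly hepatocyte-rich.

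The 28 barcodes with 8 or more core genes, 8 in WT and 20 in HKO, are called myeloid barcodes here, and the gene values below rest on them unless all 68 are named. This limit was set after the data had been seen, and the core genes are therefore a description within it. The myeloid barcodes summed to 137932 UMIs in WT and 159936 in HKO, with a median of 14786.5 UMIs per barcode in WT (4747 to 47103) and 6703.5 in HKO (3405 to 30227). Of 12 Kupffer cell and macrophage markers, 5 had UMIs in each library, at a summed level of 0 to 7.73 UMIs per 10000 in WT barcodes (median 1.56) and 0 to 5.94 in HKO barcodes (median 1.30). The defining Kupffer cell genes Vsig4, Timd4, Marco, Folr2 and Cd163 were at 0 in both, as was C1qc, which the rule limited together with C1qa, C1qb and Clec4f. No UMI of 7 platelet genes was found. Of 14 T cell genes, 0 had UMIs in WT and 2 in HKO.

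RNA of other cells was still present in some myeloid barcodes. The 28 hepatocyte genes took 2.95% to 16.4% of UMIs per WT barcode (median 4.79%) and 0.987% to 14.01% per HKO barcode (median 2.502%), with UMIs of all 28 genes in both libraries. Of 13 endothelial markers, 12 had UMIs in WT and 13 in HKO, and their summed level ran from 0 to 18.5 UMIs per 10000 in WT and from 0 to 90.1 in HKO. Barcodes with 9 or more endothelial markers numbered 2 in WT and 3 in HKO. At least 4 of 14 conventional dendritic cell genes were detected in 1 WT and 2 HKO barcodes. Values without barcodes that held 4 or more endothelial markers or at least 10% hepatocyte UMIs (5 WT and 16 HKO left, also chosen after seeing the data) are given beside the groups and genes they bear on most, and beyond that the part of other cells' RNA in each result was not tested.

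The genes that most set the 28 myeloid barcodes apart from all other barcodes describe what the selection picked out. F13a1, a transglutaminase subunit of classical monocytes, led with 151 UMIs, 507 against 1.52 UMIs per 1000000 (CPM), a 334-fold difference. Mcemp1, Ifitm6, the lectin receptor Clec4e, Gpr141 and the proteoglycan Vcan followed, at 174-fold to 287-fold. Alox5ap, which leukotriene synthesis needs, was detected in 25 of the 28 barcodes (105-fold). Further down came Napsa, Ms4a4c, Itgam (the alpha chain of the integrin Mac-1) and Anxa1, an inhibitor of inflammation, at 74.0-fold to 108-fold. Tmem267 (170-fold) rested almost wholly on 1 WT barcode, which held 213 of its 214 UMIs. These differences follow from how the barcodes were chosen and were not tested.

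**Figure D2:**
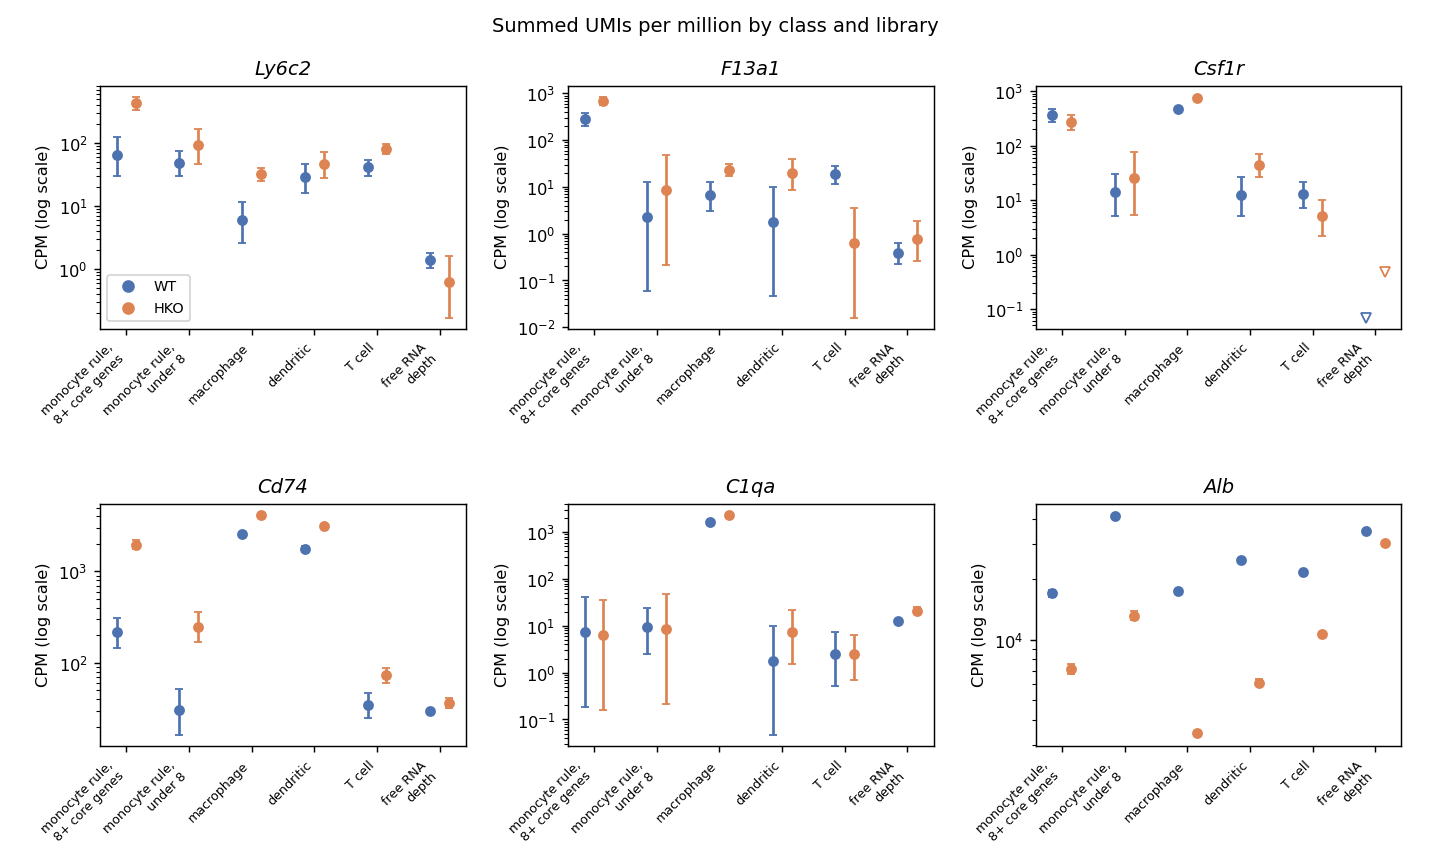
Summed UMIs per 1000000 (CPM, log scale) of 6 genes are shown for 6 classes of barcodes in WT (blue) and HKO (orange), with bars for the 95% exact Poisson interval and open triangles for the level of 3 UMIs where no UMI was seen. F13a1 was higher in myeloid barcodes than in the monocyte-rule barcodes with under 8 core genes in both libraries. Csf1r, a core gene, was higher too, and C1qa, which the rule limited, was low in both sets. The values of Csf1r and C1qa follow from how the barcodes were chosen. Alb was lower in HKO than in WT in every class.

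The share of monocyte-rule barcodes was compared between the libraries. Since hepatocytes and sorted non-parenchymal cells of pooled livers had been mixed, these shares are not numbers of monocytes per liver. All 68 barcodes were 0.105% of WT (95% exact binomial interval 0.0711% to 0.149%) and 0.203% of HKO barcodes (0.143% to 0.279%), a ratio of 1.94 (95% exact interval 1.17 to 3.23). Against leukocyte barcodes the order turned, with 31 of 565 (5.49%) in WT and 37 of 1056 (3.50%) in HKO and a ratio of 0.639 (0.386 to 1.06). The myeloid barcodes were 0.0270% of WT and 0.110% of HKO barcodes, a ratio of 4.06 (1.71 to 10.6). Per leukocyte barcode this ratio was 1.34 (0.564 to 3.51), and among barcodes with 8 or more core genes, macrophages included, 8 of 83 in WT and 20 of 240 in HKO gave 0.865 (0.365 to 2.27). These intervals, like all others here, cover counting error only. The ratios among immune cells had intervals that included 1. Barcodes at free RNA depth, which enter the first denominator, numbered 16654 of 29620 in WT and 7444 of 18260 in HKO, and their part in the ratio was not tested.

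The rule genes themselves, given as a description, showed a mixed group of barcodes. Ly6c2, the surface antigen of classical monocytes, had 9 UMIs in 4 of 8 WT myeloid barcodes (median 0.5, highest 6) and 69 UMIs in 16 of 20 HKO barcodes (median 2.5, highest 14). Ccr2, which binds the chemokine Ccl2 and guides monocytes out of the marrow, had 32 UMIs in 6 WT and 76 UMIs in 18 HKO barcodes. Chil3, a secreted chitinase-like protein, had 50 UMIs in 3 WT barcodes, 43 of them in a single barcode, and 69 UMIs in 8 HKO barcodes. The libraries overlapped for each of these genes. Lyz2 reached 110 UMIs in a WT and 76 in an HKO barcode, with medians of 52.5 and 30. Ace, a peptidase, and Treml4, a receptor of non-classical monocytes, were sparse, at 1 and 3 UMIs in WT and 9 and 16 in HKO.

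**Figure D3:**
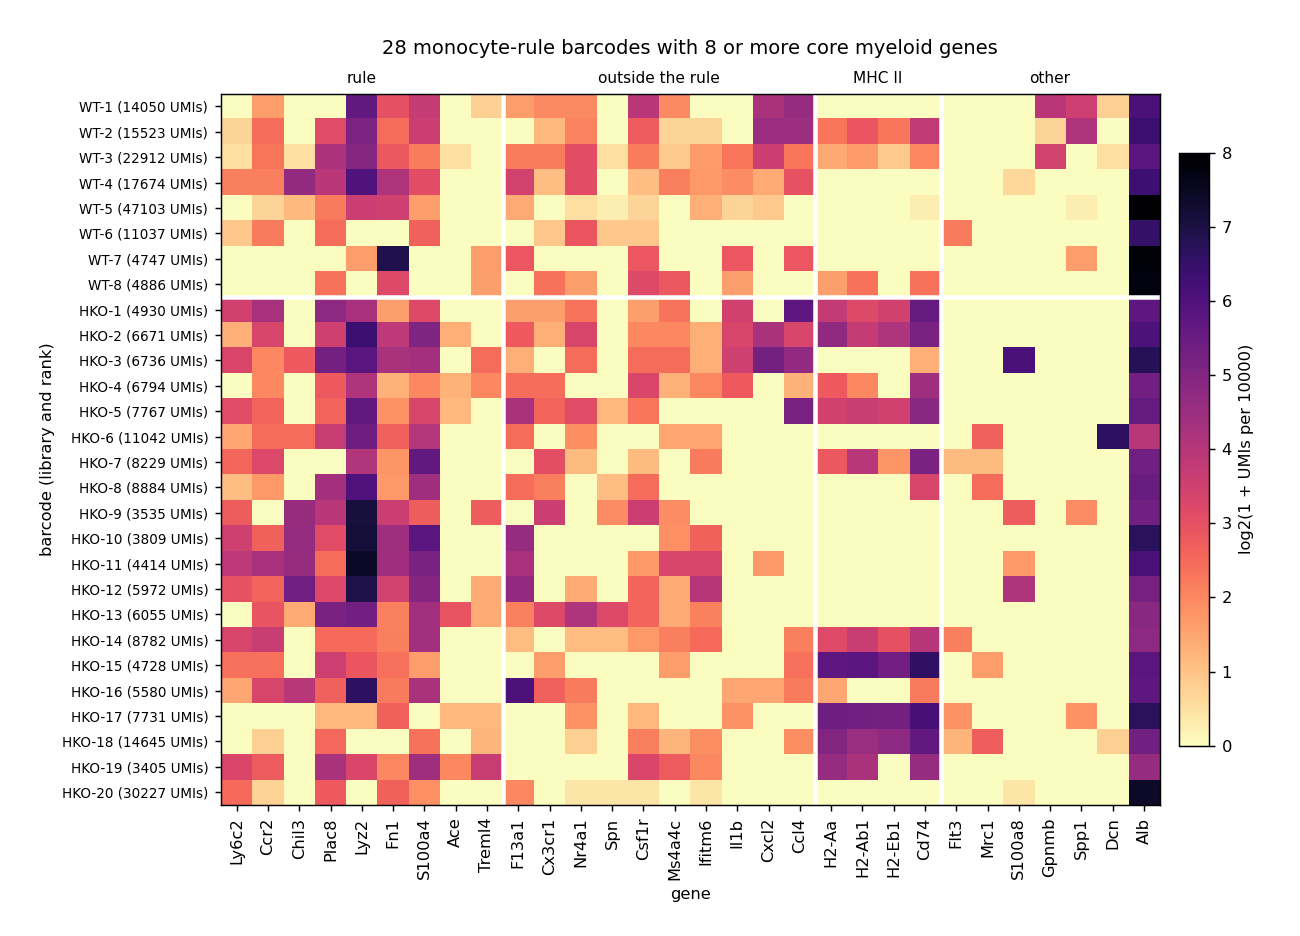
The 8 WT and 20 HKO myeloid barcodes are shown as rows with their UMIs, and 30 genes as columns, with color giving log2(1 + UMIs per 10000) and values above 8 drawn at 8. The 4 MHC class II genes summed to at least 20 UMIs in 10 HKO barcodes and to 0 in 7, Gpnmb had UMIs in 3 WT barcodes and no HKO barcode, and S100a8, Dcn and Flt3 each sat in few barcodes.

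HKO and WT were then compared gene by gene, as the ratio of CPM over the summed myeloid barcodes. Among 5223 genes with at least 10 UMIs over both libraries, 12.4% were at least 2-fold higher in HKO and 15.4% lower by as much, with a median log2 ratio of -0.03. Over all 68 barcodes 24.8% of 8317 genes were at least 2-fold higher and 14.7% lower. In the 5 WT and 16 HKO barcodes with little endothelial and hepatocyte RNA, 11.3% of 3358 genes were at least 2-fold higher and 20.1% lower, with a median of -0.18. With 1 library per genotype these counts describe 2 libraries and not the genotypes. The shares of each set apply to the list counts below wherever no share stands beside them. Single barcodes weighed on these ratios, since 1 WT barcode of 47103 UMIs held 34.1% of the WT UMIs, and without it the ratio of a gene absent from it is multiplied by 0.659. Among the 90 genes named below with a ratio, leaving out 1 of the 28 barcodes moved 59 by more than 1.5 times and turned the direction of 17. In the barcodes with little endothelial and hepatocyte RNA, where 81 of them were measured, 27 moved by as much and 4 turned (Csf1r, Ccl4, Crot and Soat1).

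MHC class II, which presents antigen to CD4+ T cells, was the gene group that stood furthest from the others. Of 8 listed genes 7 were measured, 6 were at least 2-fold higher in HKO, and the median log2 ratio was 3.03. H2-Aa, the alpha chain of I-A, had 11 UMIs in 3 of 8 WT and 157 UMIs in 11 of 20 HKO barcodes, or 79.7 and 982 CPM and a ratio of 12.3 (95% exact interval 6.69 to 25.2). Its partner chain H2-Ab1 had 17 and 140 UMIs (ratio 7.102, 4.28 to 12.5). The beta chain of I-E, H2-Eb1, had 8 and 117 UMIs (12.6, 6.19 to 29.9). Cd74, the invariant chain that chaperones these proteins, had 30 UMIs in 4 WT and 315 in 13 HKO barcodes (9.06, 6.22 to 13.6). The peptide-loading genes H2-DMa (11 and 28 UMIs, ratio 2.20) and H2-DMb1 (2 and 19 UMIs, ratio 8.19) were higher as well. Ciita, the master regulator of the group, was the exception with 8 UMIs in 2 WT and 3 UMIs in 3 HKO barcodes, a ratio of 0.323 whose interval of 0.0553 to 1.35 included 1.

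Within each library the MHC class II level was uneven, and the libraries overlapped. H2-Aa, H2-Ab1, H2-Eb1 and Cd74 together had no UMI in 4 of the 8 barcodes of WT and 7 of the 20 of HKO, and at least 20 UMIs in 1 and 10 barcodes. A single WT barcode held 42 of the 66 WT UMIs. Their sum per barcode ran from 0 to 42 in WT (median 0.5) and from 0 to 187 in HKO (median 14). Both HKO barcodes with 4 or more dendritic cell genes were among the 10. Without the dendritic gene-bearing barcodes the 4 genes summed to 66 UMIs in WT and 396 in HKO, against 66 and 729 with them, and the ratios were 6.71 for H2-Aa, 4.18 for H2-Ab1, 5.77 for H2-Eb1 and 5.81 for Cd74. Without barcodes rich in endothelial or hepatocyte RNA the ratios were 7.71, 4.77, 7.48 and 6.16 in the same order, with all 6 measured class II genes at least 2-fold higher. Leaving out each WT barcode in turn gave ratios of 8.11 to 24.03 for H2-Aa and list medians of 2.43 to 3.94, and thinning each barcode to 500 UMIs, which leaves few class II UMIs, gave 2.93 for Cd74 and 1.60 for H2-Ab1. In macrophages, barcodes with 2 or more C1q or Clec4f genes and at least 8 core genes (65 WT and 200 HKO), 12% of 12274 genes were at least 2-fold higher in HKO, class II genes had a median log2 ratio of 0.87, and 2 of 8 were at least 2-fold higher. The difference between the monocyte and macrophage ratios was not tested.

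Chil3 was not found in the barcodes with many MHC class II UMIs, a pattern and a limit chosen after the values were seen. Chil3 was detected in 0 of 11 barcodes with at least 20 class II UMIs and in 11 of 17 with fewer. Below that limit both occurred together, since 4 of the 11 barcodes with Chil3 also held class II UMIs, from 1 to 18 per barcode, against 13 of the 17 without Chil3. The highest of the 4, a WT barcode, lay just under the limit. In HKO alone these were 0 of 10 and 8 of 10 barcodes, at median depths of 7262.5 and 6013.5 UMIs, and in WT 0 of 1 and 3 of 7. Ly6c2, in contrast, was detected in 7 of the 10 class II-high and 9 of the 10 class II-low HKO barcodes, and Ccr2 in 9 of 10 of each.

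Genes of the classical program and other groups were then compared between both sets of 10 HKO barcodes. Of 3135 genes measured, 18.7% were at least 2-fold higher in the class II-high set and 16.1% lower. F13a1 had 89 UMIs in the low and 23 in the high set (ratio high over low 0.303, 0.182 to 0.483), and the rule gene Lyz2 468 and 137 UMIs (0.343). Of 9 classical genes outside the rule 4 were at least 2-fold lower in the class II-high set and 0 higher, with a median log2 ratio of -0.36 against 0.10 over all genes. These 4 included Hp and Mgst1, which hepatocytes express strongly. Inflammatory cytokines and chemokines went the other way, with 8 of 13 at least 2-fold higher and a median of 1.43. Lsp1 (ratio 3.18) and the actin-binding Pfn1 (2.52) were also higher.

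A single class II-low barcode of 30227 UMIs, 14.01% of them from hepatocyte genes, set part of these values. It held 506 of the 785 Alb UMIs of its set and 194 of the 225 UMIs of Mgst1, a glutathione transferase that protects membranes from oxidation. With it Mgst1 had a ratio of 0.161, and without it 0.760. Without it F13a1 gave 0.219, Lyz2 0.223, Lsp1 2.06 and Pfn1 1.94, and the medians were -0.81 for classical genes outside the rule and 0.89 for cytokines and chemokines. Of the 13 cytokines and chemokines, 5 were then at least 2-fold higher and 1 lower, where 14.5% of all genes were higher and 13% lower. Dendritic cell genes also moved with the split, and 6 of 14 were detected in more class II-high than class II-low barcodes and 0 in fewer. Wdfy4, needed for cross-presentation, was detected in 6 and 2 barcodes, Zbtb46, a transcription factor of conventional dendritic cells, in 3 and 1, and Flt3, which the rule limited, in 4 and 0. The part of dendritic cells in the split was not tested. Since the class II genes chose both sets, these values describe them and carry no test.

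**Figure D4:**
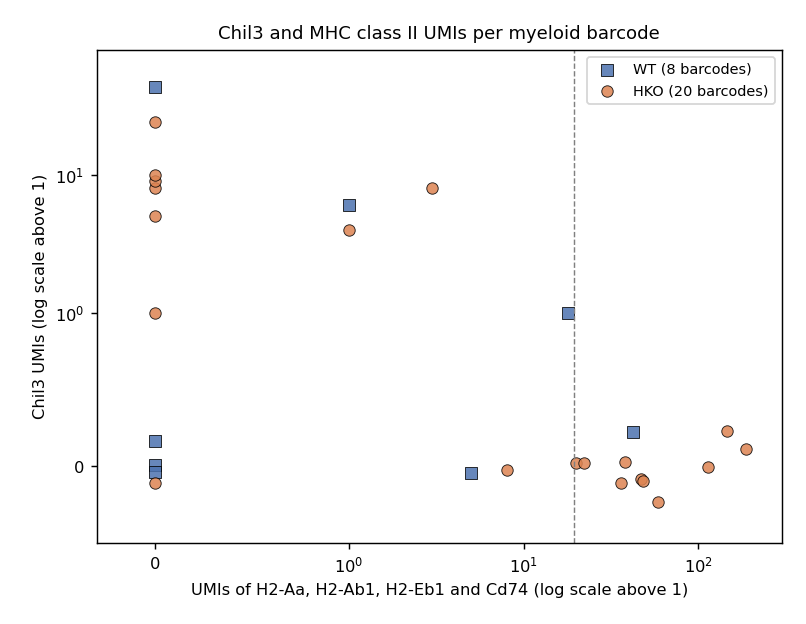
Each point is a myeloid barcode (squares WT, circles HKO), placed by its summed UMIs of 4 MHC class II genes and its Chil3 UMIs, both axes on a log scale above 1. None of the 11 barcodes right of the dashed line, at 20 or more class II UMIs, held Chil3, and points at 0 Chil3 are spread slightly so that they can be told apart.

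Classical monocyte genes outside the rule were higher in HKO for some members and not for others. Of 10 measured genes outside the rule, 2 were at least 2-fold higher and 0 lower, where 12.4% of all genes were higher and 15.4% lower. Their median log2 ratio was 0.51, and 2 had counting intervals above 1 and 2 below. F13a1 had 39 UMIs in 5 WT barcodes (highest 17) and 112 UMIs in 14 HKO barcodes (highest 36), a ratio of 2.48 (1.71 to 3.66), which ranged from 1.74 to 3.83 with each of the 28 barcodes left out in turn, the lowest without the HKO barcode that held 36 UMIs. Vcan had 7 and 24 UMIs (2.96, 1.24 to 8.13). Haptoglobin, Hp, had 181 and 136 UMIs (0.648, 0.515 to 0.814) and Mgst1 279 and 256 UMIs (0.791), of which 186 and 194 were in 1 barcode of each library. Hepatocytes express both genes strongly. The rule gene Fn1 had 169 and 92 UMIs (0.469), and without barcodes rich in endothelial or hepatocyte RNA its ratio was 0.953.

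Of 15 non-classical genes outside the rule, 5 were at least 2-fold higher in HKO and 0 lower (median log2 ratio 0.79), where 12.4% of all genes were higher and 15.4% lower. Itgal, the alpha chain of the integrin LFA-1 with which monocytes crawl along endothelium, had 14 and 38 UMIs (2.34, 1.24 to 4.68). Ear2, a ribonuclease, had 4 UMIs in a single WT barcode and 18 in 9 HKO barcodes (3.88, 1.28 to 15.8). Adgre4, an adhesion receptor, had 25 UMIs in 3 WT and 54 in 8 HKO barcodes (1.86, 1.14 to 3.12). The defining receptor of this subset, Cx3cr1, had 19 and 31 UMIs (1.41, 0.770 to 2.64), and the nuclear receptor Nr4a1, which its development needs, had 49 and 39 (0.686, 0.439 to 1.07). Both intervals included 1.

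The rule could admit a barcode through Ly6c2 or Chil3 or through Ace or Treml4, and this split was used to see whether both monocyte subsets were present. Among myeloid barcodes 14 carried Ace or Treml4 (4 WT and 10 HKO) and 14 only Ly6c2 or Chil3 (4 WT and 10 HKO). Of the former, 8 (1 WT and 7 HKO) also held Ly6c2 or Chil3, and in 7 of the 14, all 4 WT barcodes included, Ace or Treml4 rested on 1 UMI. Of 5223 genes, 16.4% were at least 2-fold higher with Ace or Treml4 and 15.2% lower by as much. Of 15 non-classical genes outside the rule, 14 were at least 2-fold higher with Ace or Treml4, with a median log2 ratio of 1.86 against 0.07 over all genes. The same held for 12 of 14 genes in HKO alone and 7 of 9 in WT alone.

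Among single genes of this split, Adgre4 had 15 UMIs in 3 and 64 UMIs in 8 of 14 barcodes (ratio 6.70, 3.77 to 12.7). Ear2 had 3 and 19 UMIs (9.94, 2.93 to 52.5). Csf1r, on which non-classical monocytes depend, had 25 and 68 UMIs (4.27, 2.66 to 7.05) and was detected in all 14 barcodes with Ace or Treml4. Cd36, a scavenger receptor for oxidized lipids, had 26 and 60 UMIs (3.62, 2.25 to 5.98), and Itgal, Cd300a and Dusp16 were also over 3-fold higher. In the other direction Mgst1 had 456 and 79 UMIs (0.272, 0.211 to 0.346), but 380 of the 456 were in 1 WT and 1 HKO barcode, and without both the ratio was 0.938. F13a1 (0.849, 0.596 to 1.20) and Chil3 (0.737, 0.487 to 1.10) had intervals that included 1, and 3 of 10 classical genes were at least 2-fold higher with Ace or Treml4. The genes with the widest ratios, Tmem267, Mmp12, S100a9, Dcn and Saa3, each had nearly all their UMIs in 1 barcode. Over all 68 barcodes, 8.01% of genes were at least 2-fold higher with Ace or Treml4 and 6.79% lower, and 7 of 16 non-classical genes were (median 0.79).

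Core myeloid genes chose the 28 barcodes, at a lower median depth in HKO (6703.5 UMIs) than in WT (14786.5), so their values are a description. The median of the core list was 0.38 and ran from -0.16 to 0.56 when each WT barcode was left out in turn. The signaling adaptor Tyrobp had 96 UMIs in 7 WT and 265 in all 20 HKO barcodes (2.38, 1.88 to 3.04), and its relative Fcer1g, which carries the signal of Fc receptors, had 104 and 183 UMIs (1.52, 1.19 to 1.95). Lst1 (2.17) and Aif1 (2.80) were higher in HKO, whereas the endotoxin co-receptor Cd14 had 19 and 11 UMIs (0.499, 0.215 to 1.10). Csf1r had 50 and 43 UMIs (0.742, 0.482 to 1.14), with 20 of the 50 in 1 WT barcode, and in barcodes with little endothelial and hepatocyte RNA its ratio was 1.04. Cybb, the catalytic subunit of the phagocyte NADPH oxidase, had 102 and 135 UMIs (1.14, 0.876 to 1.49). Of 14 genes of Fc receptors and NADPH oxidase, 2 were at least 2-fold higher and 1 lower (median log2 ratio 0.35), where 12.4% of all genes were higher and 15.4% lower. Among 6 microbial sensing genes 3 were at least 2-fold higher and 1 lower, each on few UMIs, and the median turned from 0.49 to -0.62 without barcodes rich in endothelial or hepatocyte RNA.

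For motility and cytoskeleton genes the list median lay above that of all genes (-0.03), but not every member was higher in HKO. Of 21 S100, annexin and cytoskeleton genes outside the rule, 6 were at least 2-fold higher, 0 at least 2-fold lower, and 10 had counting intervals wholly above 1 (median log2 ratio 0.56), where 8.58% of all genes had such an interval. S100a6, a calcium-binding protein, had 106 and 293 UMIs (2.38, 1.90 to 3.01). The actin-sequestering thymosins Tmsb10, with 81 and 277 UMIs (2.95, 2.29 to 3.83), and Tmsb4x, with 636 and 1589 (2.15, 1.96 to 2.37), were detected in all 20 HKO barcodes. Arpc1b, a subunit of the complex that branches actin filaments, had 30 and 94 UMIs (2.70, 1.77 to 4.22). Anxa5 went the other way with 58 and 43 UMIs (0.639, 0.421 to 0.965). In barcodes with little endothelial and hepatocyte RNA the median was 0.79 and 10 intervals lay above 1, against 7.77% of all genes. In macrophages the list, rule gene S100a4 included, had a median of 0.61 against 0.25 over all genes. Cytosolic ribosomal proteins moved in the same direction, with 1 of 74 at least 2-fold higher but 57 intervals above 1 (median 0.56). Mitochondrially encoded transcripts had a median of 0.21, which became 0.99, with 6 of 13 at least 2-fold higher, without barcodes rich in endothelial or hepatocyte RNA. In that set 1 HKO barcode of 3405 UMIs held 1196 of the 4207 HKO UMIs of these transcripts, and without it the median was 0.55.

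Chemokine receptors and adhesion molecules, which decide where monocytes go, had 3 of 15 members outside the rule at least 2-fold higher and 1 lower, with a median log2 ratio of 0.37. Selplg, a glycoprotein with which leukocytes attach to vessel walls, had 5 UMIs in 3 WT and 17 in 11 HKO barcodes (2.93, 1.04 to 10.2). The integrin chain Itga4 had 39 and 70 UMIs (1.55, 1.03 to 2.35). Cxcr4, which retains cells in the marrow, had 12 UMIs in 2 WT and 6 in 6 HKO barcodes (0.431, 0.133 to 1.24), and without the WT barcode that held 10 of the 12 its ratio was 2.16. Among 15 survival and growth factor receptor genes outside the rule 5 were at least 2-fold higher and 0 lower (median 0.10), where 12.4% of all genes were higher and 15.4% lower. With Flt3 included the median was 0.23 and ran from -0.21 to 0.48 when each WT barcode was left out in turn. They included Bcl2, with 2 and 12 UMIs (5.17, 1.15 to 47.6), Bcl2a1d, with 3 and 17 UMIs (4.89, 1.41 to 26.0), and the interferon gamma receptor chain Ifngr1, with 11 and 46 UMIs (3.61, 1.84 to 7.72). Bcl2a1d has near-identical copies in the mouse genome, so its count is uncertain, and Bcl2a1b had 15 and 14 UMIs.

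Chaperones of the endoplasmic reticulum were the group furthest in the opposite direction. Of 24 measured genes 10 were at least 2-fold lower in HKO and 0 higher, and 15 had intervals wholly below 1 (median log2 ratio -0.78), where 9.61% of all genes had such an interval. Hspa5, the chaperone BiP that senses unfolded proteins, had 174 UMIs in all 8 WT barcodes and 65 UMIs in 15 of 20 HKO barcodes (0.322, 0.238 to 0.431). Hsp90b1 had 152 and 81 UMIs (0.460, 0.347 to 0.606), and the disulfide isomerase Pdia4 23 and 5 (0.187, 0.0557 to 0.504). Ddit3, a transcription factor of prolonged stress, had 11 UMIs in 3 WT and 2 UMIs in 2 HKO barcodes (0.157, 0.0169 to 0.718). Sec61b, a channel subunit, did not follow the group, with 60 and 77 UMIs (1.11), and its ratio was 2.27 in barcodes with little endothelial and hepatocyte RNA. Hepatocytes express these chaperones strongly, and Alb, a hepatocyte transcript, was lower in HKO in the same barcodes (2351 and 1141 UMIs, ratio 0.419). Without the WT barcode that held 1550 of the 2351 the ratio of Alb was 0.809. In barcodes with little endothelial and hepatocyte RNA, where the ratio of Alb was 0.661, 10 of 22 chaperone genes were at least 2-fold lower and 1 higher (median -0.71), and that of Hspa5 was 0.227. Leaving out each WT barcode in turn gave list medians of -0.90 to -0.74. The chaperone list was also lower in macrophages, with a median of -0.36 against 0.25 over all genes. There, 1 of 24 genes was at least 2-fold lower and 0 higher. The difference between the monocyte and macrophage values was not tested.

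Lysosomal and lipid-associated genes had medians below 0. Of 20 lysosomal genes 0 were at least 2-fold higher and 1 was lower by as much, where 15.4% of all genes were, and 4 had intervals below 1, where 9.61% of all genes had (median log2 ratio -0.43). Psap, the precursor of the saposins that help break down sphingolipids, had 278 and 190 UMIs (0.589, 0.488 to 0.711), and the protease Ctsb 125 and 97 (0.669, 0.508 to 0.880). Of 14 genes of lipid-associated macrophages, a state described in steatohepatitis, 4 were at least 2-fold lower and 0 higher (median -0.68). Gpnmb, a glycoprotein of that state, had 44 UMIs in 3 of 8 WT and 0 UMIs in 20 HKO barcodes, a ratio of at most 0.0588. Of the 44, a single barcode held 23 and another 20. Spp1, osteopontin, had 42 UMIs in 4 WT and 3 UMIs in 2 HKO barcodes (0.0616, 0.0122 to 0.193). Of the 42, a single barcode held 25 and another 15. In barcodes with little endothelial and hepatocyte RNA the ratio of Gpnmb was at most 0.0946 and that of Spp1 was 0.0909. Trem2, the receptor that defines the state, had 8 UMIs in 2 WT and 9 UMIs in 7 HKO barcodes (0.970, 0.332 to 2.89), with 6 of the 8 in 1 barcode. Plin2, the coat of lipid droplets, had 69 and 43 UMIs (0.537), and Apoe, which hepatocytes secrete, 1252 and 845 (0.582), with ratios of 0.815 and 0.884 in barcodes with little endothelial and hepatocyte RNA.

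Inflammatory genes rested on few barcodes. Of 15 measured cytokines and chemokines 1 was at least 2-fold higher and 5 lower by as much in HKO, against 12.4% and 15.4% of all genes (median log2 ratio -0.30). They were 2 and 4 of 14 in barcodes with little endothelial and hepatocyte RNA, with a median of -0.09 against -0.18 over all genes. Tnf had 31 UMIs in 4 of 8 WT and 12 UMIs in 4 of 20 HKO barcodes (0.334, 0.156 to 0.669), and without the WT barcode that held 20 of the 31 the ratio was 0.835. Cxcl2, which attracts neutrophils, had 91 UMIs in 5 WT and 39 in 4 HKO barcodes (0.370, 0.247 to 0.543). Of the 39, 25 were in the HKO barcode with most S100a8 and S100a9 UMIs, which also held other neutrophil markers, and without it the ratio was 0.139. Ccl2, the ligand of Ccr2, had 19 UMIs in 2 WT and 2 UMIs in 1 HKO barcode (0.0908, 0.0103 to 0.376), with 14 of the 19 in 1 barcode and a ratio of 0.227 without it. Cxcl10, induced by interferon, had 41 and 14 UMIs (0.294), and without the WT barcode that held most of them its ratio was 1.75. Il1b (21 and 25 UMIs, ratio 1.03), Ccl3 (41 and 56, 1.18) and Ccl4 (90 and 87, 0.834) had intervals that included 1, and that of Ccl4 was 1.16 in barcodes with little endothelial and hepatocyte RNA. Il1rn, the antagonist of the interleukin-1 receptor, had 26 UMIs in 4 WT and 8 UMIs in 5 HKO barcodes (0.265, 0.104 to 0.604).

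For the 3 lists that follow, the shares over all genes were 12.4% at least 2-fold higher and 15.4% lower in myeloid barcodes. In barcodes with little endothelial and hepatocyte RNA they were 11.3% and 20.1%. Among anti-inflammatory genes 3 of 9 were at least 2-fold higher and 1 lower (median 0.23). The mannose receptor Mrc1, found on resident macrophages and liver endothelium, had 0 UMIs in WT and 20 UMIs in 5 HKO barcodes, at least 5.75-fold higher. However, 18 of the 20 were in the 3 HKO barcodes with 9 or more endothelial markers, and barcodes with little endothelial and hepatocyte RNA held 0 and 2 UMIs, which allow no ratio. In those barcodes the median of the anti-inflammatory list was -0.0028. Type I interferon response genes had 5 of 15 members at least 2-fold higher and 0 lower, although their median log2 ratio was 0.04. In barcodes with little endothelial and hepatocyte RNA, 1 of 10 was higher and 1 lower (median -0.06). The antiviral membrane protein Ifitm3 had 124 and 330 UMIs (2.30, 1.86 to 2.84) and Isg15, a ubiquitin-like protein, 1 UMI in 1 WT and 13 UMIs in 8 HKO barcodes (11.2, 1.68 to 476). Of 13 genes of MHC class I presentation 3 were at least 2-fold higher and 0 lower (median 0.33), which became 2 and 1 of 9 (median -0.25) in barcodes with little endothelial and hepatocyte RNA. The immunoproteasome subunit Psmb8 had 11 and 32 UMIs (2.51, 1.23 to 5.52), whereas B2m, the shared light chain, had 271 and 268 (0.853, 0.718 to 1.01).

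Transcription factors of the lineage gave little difference as a list. At least 2-fold higher were 3 of 17, and 1 was lower (12.4% and 15.4% over all genes), with a median log2 ratio of 0.12. In barcodes with little endothelial and hepatocyte RNA these were 1 and 2 of 15 (median -0.31). Spi1, which specifies myeloid cells, had 24 and 48 UMIs (1.72, 1.04 to 2.94). Irf8, required for monocyte and dendritic cell progenitors, had 10 and 31 (2.67, 1.28 to 6.11). Cebpa, which hepatocytes also express, had 15 UMIs in 6 WT and 4 UMIs in 3 HKO barcodes (0.230, 0.0556 to 0.722). Zeb2, a repressor that keeps the identity of monocytes and macrophages, was among the most abundant with 302 and 266 UMIs (0.760, 0.642 to 0.899). Macrophage maturation genes had 7 measured members, of which 2 were at least 2-fold higher and 1 lower (median 0.27), and 3 members with a median of -0.27 in barcodes with little endothelial and hepatocyte RNA.

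Targets of miR-33 were compared because HKO mice lack miR-33 in hepatocytes but keep it in blood cells. Of 7 targets named by the study 4 were measured, 1 was at least 2-fold higher and 0 lower (median 0.20, and -0.09 in barcodes with little endothelial and hepatocyte RNA). Abca1, the cholesterol exporter, had 20 UMIs in 7 WT and 19 UMIs in 10 HKO barcodes (0.819, 0.414 to 1.62). Crot, which shuttles fatty acids out of peroxisomes, had 43 and 51 UMIs (1.02, 0.668 to 1.57), with 34 of the 51 in 1 HKO barcode and a ratio of 0.420 without it, and Cpt1a, the gate of mitochondrial fatty acid oxidation, 14 and 21 (1.29, 0.627 to 2.75). Abcg1, the second cholesterol exporter, had 6 and 17 UMIs (2.44, 0.919 to 7.57). All 4 intervals included 1, so differences of up to the bounds given could not be seen at this depth. In the wider list of cholesterol and lipid handling, 1 of 16 genes was at least 2-fold higher and 2 lower (median -0.51), with the lipoprotein receptor Scarb1 at 21 and 7 UMIs (0.287, 0.103 to 0.702) and the cholesterol-esterifying enzyme Soat1 at 14 and 21 (1.29), of which 1 WT barcode held 12 of the 14. Without that barcode the ratio of Soat1 was 7.55, and it was 0.641 in barcodes with little endothelial and hepatocyte RNA.

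Glycolysis and immediate early lists had medians near that of all genes. Glycolysis and hypoxia genes had 1 of 15 members at least 2-fold higher and 0 lower (median -0.04, and 0.26 in barcodes with little endothelial and hepatocyte RNA), the member being the hexokinase Hk2 with 3 and 17 UMIs (4.89, 1.41 to 26.0). Immediate early genes, which respond to tissue dissociation, had 2 of 19 higher and 1 lower (median -0.03), with Fos at 93 and 117 UMIs (1.08, 0.819 to 1.44). Of 20 cell cycle genes 5 were measured and 2 were at least 2-fold higher (median 0.93, and 0.17 in barcodes with little endothelial and hepatocyte RNA). They were Hmgb2, with 14 and 51 UMIs, and Stmn1, whose 8 HKO UMIs sat in 1 barcode.

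**Figure D5:**
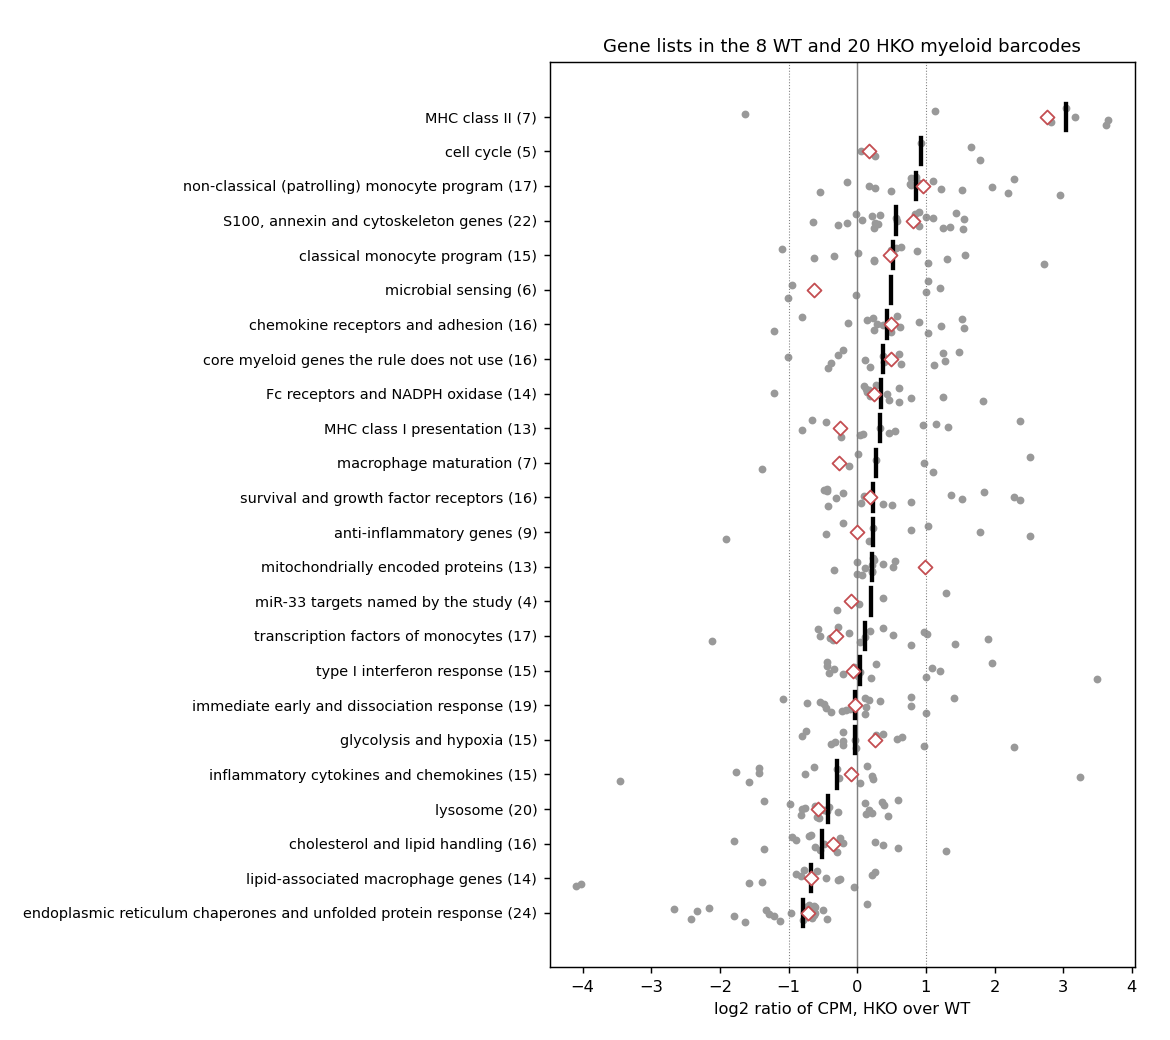
Grey dots give the log2 ratio of CPM, HKO over WT, for each measured gene of a list, rule genes included, in the myeloid barcodes, black bars the list median, and red diamonds the median in barcodes with little endothelial and hepatocyte RNA (the number of measured genes stands beside each list). MHC class II lay furthest to the right, with a median of 3.03, and endoplasmic reticulum chaperones furthest to the left, with -0.78.

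The genes with the widest ratios in myeloid barcodes were taken next. Higher in HKO, beside 4 class II genes, were the sialyltransferase St8sia4 (1 UMI in WT and 29 in 10 HKO barcodes, ratio 25.01, 4.15 to 1021), the endosomal Stx7 (1 and 25 UMIs), the transporter Abcc4 (2 and 27), the semaphorin receptor Plxnc1 (3 and 29), Lbh (2 and 19) and the decoy interleukin-1 receptor Il1r2 (2 UMIs in 2 WT and 23 in 6 HKO barcodes, ratio 9.92, 2.45 to 86.8). The 10 genes with the lowest ratios included the liver enzymes Hgd (29 and 6 UMIs), Cyp2j5 (35 and 7), Acox2 (19 and 3) and Prodh2 (17 and 3), beside Tars, Mitf, Dgat2, Pdia4, Synj2bp and Hpn. Free RNA scaled to the same Alb would give 33.8 WT and 12.02 HKO UMIs of Hgd, 30.95 and 13.4 of Cyp2j5, 12.6 and 4.58 of Acox2, and 10.07 and 6.57 of Prodh2. Its part in these ratios was not tested. Mitf, a regulator of lysosomal genes, had 26 UMIs in 6 WT and 5 UMIs in 2 HKO barcodes (0.166, 0.0497 to 0.439), where free RNA scaled in the same way would give 0.814 and 0.655. In barcodes with little endothelial and hepatocyte RNA, the interferon-induced Epsti1 was higher with 5 and 42 UMIs (6.36, 2.52 to 20.6), and Irf1, a transcription factor induced by interferon gamma, lower with 24 UMIs in all 5 WT and 3 UMIs in 3 HKO barcodes (0.0946, 0.0182 to 0.312).

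Over all 68 barcodes, the genes with the widest ratios higher in HKO included the endothelial Eng (3 and 39 UMIs), Mmrn2 (2 and 26) and Sparc (4 and 57), along with St8sia4 (6 and 90), Il1r2 (2 and 29) and H2-Eb1 (9 and 128). St8sia4, Il1r2 and H2-Eb1 had 29, 23 and 117 of their HKO UMIs in the myeloid barcodes. Among genes lower in HKO, Thrsp, a regulator of fat synthesis in hepatocytes, had 85 and 2 UMIs, where free RNA would give 98.7 and 4.28, and Rgs16 had 95 and 3, where it would give 94.9 and 3.89. Most list medians were also higher over all 68 barcodes than in myeloid barcodes, with 1.73 against 0.51 for classical genes outside the rule and 1.57 against 0.38 for core myeloid genes. After subtraction of free RNA the medians over all 68 barcodes turned to -0.41 for the classical list (1.81 before, rule genes included) and -0.70 for core myeloid genes. Barcodes with under 8 core genes were 23 of 31 in WT and 17 of 37 in HKO. The chaperone list was lower in both, with -1.04 over all 68 barcodes.

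The few barcodes that stood apart in a library carried much of its extremes. In WT, the barcode with 43 Chil3 UMIs also held 110 Lyz2 UMIs and 17 F13a1 UMIs at a depth of 17674 UMIs, the most classical profile of that library. Another WT barcode with no Lyz2 UMI held 4 UMIs each of Flt3, a receptor of dendritic cell progenitors, and Clec9a at 11037 UMIs. The same barcode held 36 UMIs of Tcf4, the regulator of plasmacytoid dendritic cells, 13 of Bcl11a and 10 of Bst2, and its summed level of 10 plasmacytoid dendritic cell genes, 53.5 UMIs per 10000, was the highest of the WT myeloid barcodes (median 5.36). Siglech, a defining gene of plasmacytoid dendritic cells, was at 0. In HKO, all 59 UMIs of S100a9 and 47 of the 61 of S100a8, calprotectin subunits abundant in neutrophils, were in 1 barcode that also held 5 of the 10 other neutrophil markers. The stellate cell gene Dcn had 110 of its 111 HKO UMIs in a barcode with endothelial markers. These barcodes met the rule and were kept, and the ratios of S100a8, S100a9 and Dcn are therefore not given as differences between the libraries.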

How the data were processed

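Liver cells of 1 WT and 1 HKO pool were profiled with the 10x Genomics 3′ assay. The deposited values are raw UMI counts per gene and barcode made by the authors with Cell Ranger (7.1.0 in the file headers; the submitters' notes also name Seurat 3, R 3.0 and mm10), with no normalization. Barcodes with at least 500 UMIs and at most 50% mitochondrial UMIs were kept, which left 29620 of 30078 in WT and 18260 of 20000 in HKO. WT barcode sequences were not used here, so barcodes shared between libraries were not counted.

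Counts were summed over barcodes per library (Python 3.11.15, scipy 1.17.1), scaled per 1000000 UMIs, and expressed as HKO over WT for genes with at least 10 UMIs. Where a library had 0 UMIs, 3 counts stood in. Intervals were 95% exact Poisson, Clopper-Pearson or conditional binomial. With 1 library per genotype no test was made. The computation of ratios was tested on simulated data. Doublets were scored with Scrublet (scanpy 1.11.5), whose automatic threshold marked 0 barcodes in either library and so did not work; leaving out the highest scores at the loading rate removed 3 WT and 1 HKO monocyte-rule barcodes and 0 myeloid barcodes.

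The selection rule, the markers and the 25 gene lists were chosen with earlier results of these data known. Beside rule and list genes, the text names the 10 highest and 10 lowest ratios among genes with at least 20 UMIs in 5 or more barcodes of the higher library and no barcode over 50%, the 20 genes most above other barcodes, and the 5 extremes of each side of the Ace or Treml4 split, some of them given only as kinds. Expected levels from free RNA were scaled by Alb. The limit of 8 core genes, the set with little endothelial and hepatocyte RNA, and the dendritic and class II splits were chosen after seeing the data.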

Additional observations from a re-analysis of the deposited data

Results flagged for a closer look

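For 8 gene lists the median log2 ratio, HKO over WT, had opposite signs in the myeloid monocyte-rule barcodes (8 WT and 20 HKO) and in macrophage barcodes with at least 8 core myeloid genes (65 WT and 200 HKO), and each difference was noted for this alone and was not tested. Lipid-associated genes had a median of -0.68 in myeloid barcodes and 0.02 in macrophages, and lysosomal genes -0.43 and 0.27. Cholesterol and lipid handling gave -0.51 and 0.33, and inflammatory cytokines and chemokines -0.30 and 0.55. Immediate early genes (-0.031 and 0.44) and glycolysis (-0.037 and 0.14) lay close to 0 in myeloid barcodes. The order was the other way for mitochondrially encoded transcripts (0.21 and -0.41) and for the miR-33 targets (0.20 and -0.13). In barcodes with little endothelial and hepatocyte RNA the medians of the miR-33 targets (-0.09) and glycolysis (0.26) had the sign seen in macrophages, and the other 6 kept the sign of the myeloid barcodes. The median of all genes was itself 0.25 in macrophages and -0.03 in myeloid barcodes. Relative to it, lipid-associated genes (-0.65 and -0.23) and glycolysis (-0.0075 and -0.12) lay on the same side in both, and lysosomal genes in macrophages lay at 0.018, so that 6 of the 8 lists still differed in sign. With 1 library per genotype no spread between replicates was available to judge any of the 8.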

How the results depend on the processing

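With 1 library per genotype, every value here describes 2 libraries, and the settings below show only what other choices did to it. No paired analysis was possible because each genotype had 1 library and no test was made. The limit of 8 core genes, the set with little endothelial and hepatocyte RNA, and the settings on barcodes left out singly, on rule genes and on dendritic genes were added after the data had been seen.

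The ratio of shares of 1.94 became 3.42 with at least 1000 UMIs, 4.15 with at least 4 rule genes (9 WT and 23 HKO barcodes), 4.05 with every barcode thinned to 1000 UMIs (8 and 11, with 385 WT and 8362 HKO barcodes too shallow and left out) and 4.06 with at least 8 core genes (8 and 20), and it turned to 0.639 per leukocyte barcode. At least 2 core genes left 18 WT barcodes. Over all 68 barcodes, 2063 genes at least 2-fold higher and 1220 lower became 966 and 704 at 30 UMIs or more, 136 and 137 after thinning to 500 UMIs, 646 and 804 with 8 core genes, and 380 and 675 with little endothelial and hepatocyte RNA. The higher count was 5312 with no filter and 1193 after subtraction of free RNA. In myeloid barcodes, 646 higher and 804 lower became 147 and 209 at 30 UMIs or more, 2134 and 2901 with no filter, 69 and 27 after thinning, and 380 higher with little endothelial and hepatocyte RNA. Fewer genes are measured at higher minimums and after thinning.

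Leaving out each WT myeloid barcode in turn gave 516 to 728 genes higher and 677 to 803 lower, and ratios of 0.215 to 1.75 for Cxcl10. It also took the medians of the core myeloid, Fc receptor, microbial sensing, survival, anti-inflammatory, macrophage maturation, transcription factor, MHC class I, glycolysis, immediate early and interferon lists across 0, with the lowest at -0.51 for interferon genes. Over all 68 barcodes, 24.8% higher and 14.7% lower became 22.6% and 19.6% with barcodes weighted equally, and 18.8% and 20.0% after centering on the median of 0.23. Thinned myeloid barcodes gave 32.4% and 12.7% with a median of 0.42. The non-classical median of 0.79 in the Ace or Treml4 split was 2.08 in HKO and 0.51 in WT alone.

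List medians over all 68 barcodes changed sign after subtraction of free RNA for classical (-0.41), non-classical (-0.10), core myeloid (-0.70), Fc receptor (-0.53), microbial sensing (-0.88), chemokine receptor (-0.52), survival (-0.72), transcription factor (-0.06), lipid-associated (-1.001), inflammatory (-1.19), MHC class I (-0.25), lysosomal (-0.58) and mitochondrially encoded genes (-1.38), and with little endothelial and hepatocyte RNA for anti-inflammatory (-0.0028), interferon (-0.062), microbial sensing (-0.62), transcription factor (-0.31), macrophage maturation (-0.27), lipid-associated (-0.68), inflammatory (-0.09), MHC class I (-0.25), lysosomal (-0.57) and immediate early genes (-0.03) and the miR-33 targets (-0.09). The class II median of the Ace or Treml4 split became -0.49 after thinning. The cause of each change was not tested. Of the values for single genes and lists, 12 that were at least 2-fold changed sign and are among those above. Of the others, 983 stayed within their limits, 71 of them crossing the point of no difference, and 131 moved beyond, 23 of them across it. The limits were the counting interval for single genes. For list medians they were a range from the spread among the genes of the list, which is not counting error.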
